A study of Mus musculus with 11 samples.

Results

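The genes examined here encode matrix metalloproteinases (MMP), the ADAM and ADAMTS metalloproteinases, the ADAMTS-like proteins (ADAMTSL), the tissue inhibitors of metalloproteinases (TIMP) and the lysyl oxidases (LOX). Members were chosen by gene name and by depth, at 10 or more reads in at least 5 of the 11 mice. Of the 43346 genes in the count table, 89 had a matching name and 68 of these reached the minimum, comprising 18 MMP, 18 ADAM, 18 ADAMTS, 5 ADAMTSL, 4 TIMP and 5 LOX genes. RNA-Seq was performed on colonic tissue of 11 male Swiss Webster mice, all 8–10 weeks old, kept in isolators in individual cages on autoclaved feed. Of these, 5 were germ-free and 6 were humanized, meaning that they started life germ-free and were gavaged at 4–5 weeks of age with 300 μL of human stool suspension, then left for 4–5 weeks. Because every humanized mouse received material from the same donor, the comparison is of the microbiota of 1 donor. Counted reads per mouse ranged from 49097005 to 64148538 in germ-free mice and from 39125290 to 54219854 in humanized mice, and no sequencing batch is named in the sources used here.

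MMPs are secreted or membrane-bound zinc proteinases that cleave collagens, gelatins and other matrix proteins, and TIMPs block their active sites. ADAM proteinases mainly release the extracellular parts of membrane proteins, whereas ADAMTS proteinases are secreted and cut proteoglycans and procollagens. Lysyl oxidases oxidize lysine residues of collagen and elastin so that fibers become cross-linked, and ADAMTSL proteins lack a protease domain and bind microfibrils. In the intestine most of these genes are associated with the stroma, while a few, such as Mmp7, are known from epithelium.

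In humanized mouse colon, 25 of the 67 members that could be tested had lower expression and 4 had higher expression at FDR below 0.01, by edgeR's exact test with Benjamini–Hochberg correction over all 19863 tested genes. The share with lower expression was 37.3% of members, compared with 10.1% of all tested genes, and the share with higher expression was 5.97%, compared with 9.2%. In either direction, 29 members were called, compared with 19.3% of all tested genes. For 4 members (Mmp3, Mmp20, Adam5 and Adam28) the read minimum was met almost wholly in 1 group, with at most 1 mouse of the other group at 10 reads, so a difference was partly built into their selection. Of the 64 other tested members, 24 had lower and 3 had higher expression. The log2-fold change (LFC) of humanized over germ-free mice was below 0 for 55 of the 67 members. Its median was −0.84 for the members and 0.01 for all tested genes. The germ-free and humanized values were fully separated for 28 members, or 41.8%, compared with 18.4% of all tested genes.

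**Figure D1:**
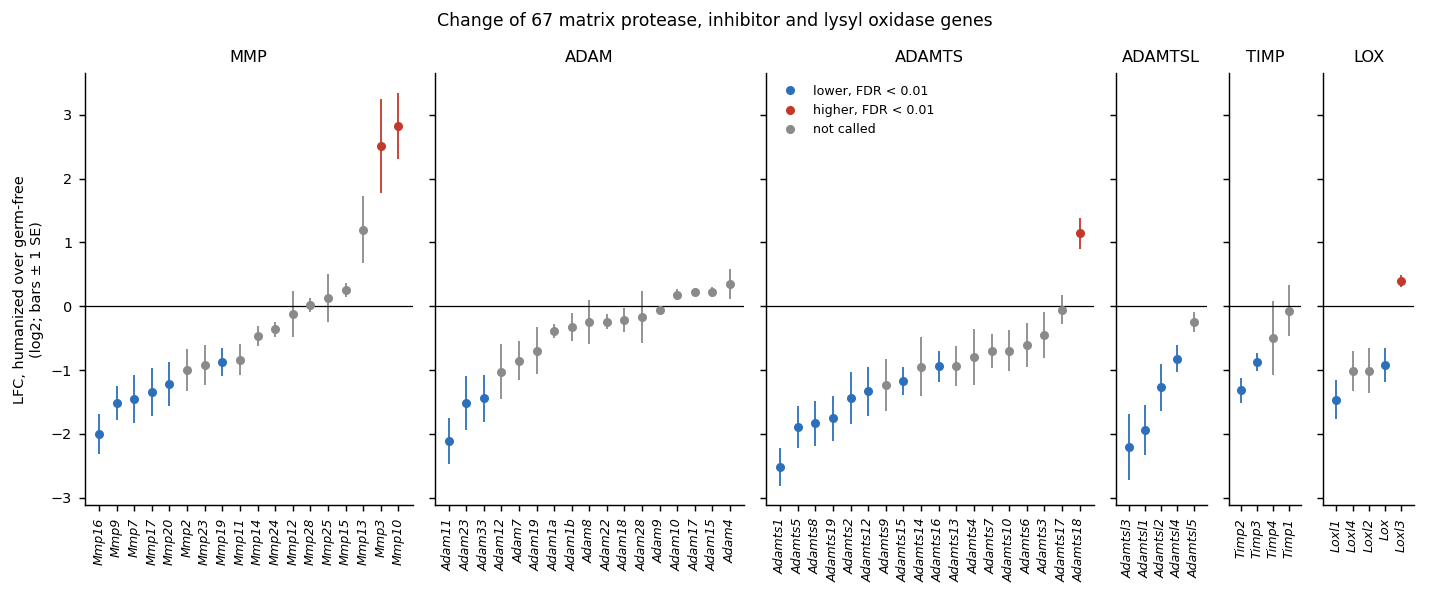
LFC of humanized over germ-free mice for each of the 67 tested members, by family and in order of LFC, as points with bars of 1 standard error (SE). Blue and red points mark genes with lower or higher expression at FDR below 0.01, and gray points mark genes that were not called. Of the members, 25 are blue and 4 are red, the red ones being Mmp3, Mmp10, Adamts18 and Loxl3.

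The families differed in how many members were called. Lower expression was called for 6 of 18 MMP, 3 of 17 tested ADAM, 8 of 18 ADAMTS, 4 of 5 ADAMTSL, 2 of 4 TIMP and 2 of 5 LOX genes. With edgeR's quasi-likelihood test these counts were 2 MMP, 1 ADAM, 5 ADAMTS, 2 ADAMTSL, 2 TIMP and 1 LOX genes. Shares of all tested genes are given here for the exact test only, so the quasi-likelihood counts cannot be set against one. On leaving out each mouse in turn, 4 to 9 MMP, 2 to 3 ADAM, 5 to 12 ADAMTS, 2 to 4 ADAMTSL, 2 TIMP and 1 to 4 LOX genes were called lower. The highest MMP and ADAMTS counts were those without humanized mouse 3, the lowest ADAMTS counts without humanized mouse 1 or 6, and the lowest ADAMTSL count without germ-free mouse 4. For LOX genes the count was 4 without humanized mouse 3 or 5 and 1 without germ-free mouse 1, 3, 4 or 5 or humanized mouse 1, 4 or 6. The median LFC was closest to 0 in the ADAM family (−0.24) and lowest in the ADAMTSL family (−1.27), with −0.65 for MMP, −0.68 for TIMP, −0.94 for ADAMTS and −1.01 for LOX genes. Differences between families were not tested.

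Members also differed widely in level. Expression is given as RPKM, a read count scaled to the gene length of the count table and to the TMM-normalized library size, and values with an error are the mean ± SD over n = 5 germ-free or n = 6 humanized mice. A mean above 4 RPKM over all mice was found for 13 members, of which 3 fell. Among the 15 members between 1 and 4 RPKM, 8 fell and 1 rose. Below 1 RPKM, 14 of 39 members fell and 3 rose. The shares of all tested genes called in these classes were not computed, so differences between classes cannot be read as particular to the members.

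Among the gelatinases, which degrade denatured collagen and basement membrane collagen, Mmp9 (chr2:164940780-164955850, mm10) was called and Mmp2 was not. Mmp9 expression was 1.64, 1.14, 1.34, 1.53 and 1.48 RPKM in the germ-free mice, and in humanized mice it ranged from 0.202 to 0.763 RPKM with a median of 0.514. All germ-free values were above all humanized values, and expression was 2.87-fold lower in humanized mice (LFC = −1.52, SE = 0.27, FDR = 2.41e-06). Mmp2 (chr8:92827328-92853417), which was more abundant, had 21.8, 21.9, 24.5, 23.3 and 23.3 RPKM in germ-free mice, and between 2.55 and 16.6 RPKM with a median of 12.1 in humanized mice. The Mmp2 groups also did not overlap, but the FDR was above the threshold (LFC = −1.0, SE = 0.33, FDR = 0.0131). The lowest Mmp2 value came from humanized mouse 5. Without that mouse the LFC of Mmp2 was −0.80 at an FDR of 2.35e-06, and it was also below 0.01 without humanized mouse 3 (FDR = 0.00750) or mouse 4 (FDR = 0.00707).

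Membrane-type MMPs, which act at the cell surface, included the most abundant MMP gene, Mmp15. Mmp15 expression was 24.3 ± 1.61 RPKM without and 28.9 ± 5.06 RPKM with microbiota, with overlapping values (LFC = 0.25, SE = 0.11, FDR = 0.0958). Mmp14, the activator of pro-MMP-2, had 11.3, 12.1, 13.8, 13.1 and 12.7 RPKM in germ-free mice. Humanized mice had between 5.21 and 11 RPKM, with a median of 9.72. Its groups did not overlap, and its FDR was above the threshold (LFC = −0.47, SE = 0.15, FDR = 0.0181), though it was 0.00175 without humanized mouse 5 and 0.00930 without humanized mouse 4. Of the 6 membrane-type genes, Mmp16 and Mmp17 fell. Mmp16 was expressed at a low level, with 8 to 122 reads per mouse, and fell by 2.0 on the log2 scale (SE = 0.31, FDR = 3.09e-08), from 0.178 ± 0.0493 to 0.0437 ± 0.0201 RPKM. Mmp17 fell from 1.70 ± 0.566 to 0.670 ± 0.329 RPKM (LFC = −1.34, SE = 0.38, FDR = 0.00423). The Mmp17 call was lost on leaving out germ-free mouse 3 or 4 or humanized mouse 1, 2 or 4, with an FDR of up to 0.0263.

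Mmp19 also had lower expression, and its groups did not overlap. It had 2.93, 3.52, 3.39, 3.59 and 3.74 RPKM in germ-free mice, compared with 0.815 to 2.59 RPKM (median 1.95) in the humanized group (LFC = −0.87, SE = 0.21, FDR = 0.00137). This call was lost with the quasi-likelihood test (FDR = 0.0104). Of the annotated exon bases of Mmp19, 28.3% are shared with other genes on the opposite strand, and the library kit does not mark strand, so reads of these genes cannot be told apart there.

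The Mmp genes of the chromosome 9 cluster went in opposite directions by the exact test. With the quasi-likelihood test Mmp3, Mmp7 and Mmp20 lost their calls (FDR = 0.0237, 0.0134 and 0.0202), and only Mmp10 kept its call. The cluster comprises 10 genes between chr9:7272514 and chr9:7699585 on mm10, of which 6 reached the read minimum. In this order along the chromosome, Mmp13 encodes a collagenase, Mmp12 macrophage elastase, Mmp3 and Mmp10 the stromelysins, Mmp20 enamelysin and Mmp7 matrilysin. Mmp1a and Mmp1b had 0 reads in every mouse, Mmp8 had at most 3 reads and Mmp27 at most 9. The 300-base promoter windows of all 6 members, from 250 bases before to 50 bases after the annotated start, held the letters TGANTCA, an AP-1 motif that reads the same on both strands. Among the other 34 members with a promoter in the RefSeq table (GRCm38.p6), 2 held it, and among all 32851 promoters in the table the share was 7.81%, compared with 8 of 45 members' promoters, or 17.8%. Mmp12 and Mmp7 each have more than 1 listed start, and the motif was in 1 of these. The 100 bases before the start are shown for the 6 genes because they lie in 1 cluster, share this motif and yet differ in the direction of their change. Capitals mark the AP-1 letters and the TATA box letters, TATAAA on either strand, which also 17.8% of members' promoters and 13.6% of all promoters held, and the 2 motifs do not overlap. A match does not show that a factor binds.
Mmp13 (chr9:7272414-7272513, plus strand): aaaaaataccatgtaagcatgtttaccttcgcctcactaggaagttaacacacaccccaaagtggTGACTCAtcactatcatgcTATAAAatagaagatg
Mmp12 (chr9:7347274-7347373, plus strand): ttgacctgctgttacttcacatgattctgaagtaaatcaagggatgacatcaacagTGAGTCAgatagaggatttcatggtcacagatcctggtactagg
Mmp3 (chr9:7445722-7445821, plus strand): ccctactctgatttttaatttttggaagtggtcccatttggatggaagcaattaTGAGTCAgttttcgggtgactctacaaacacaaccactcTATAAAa
Mmp10 (chr9:7502242-7502341, plus strand): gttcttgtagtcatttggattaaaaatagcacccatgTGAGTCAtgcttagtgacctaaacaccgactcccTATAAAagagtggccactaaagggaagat
Mmp20 (chr9:7628131-7628230, plus strand): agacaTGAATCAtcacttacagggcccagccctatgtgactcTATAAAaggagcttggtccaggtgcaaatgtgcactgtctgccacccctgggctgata
Mmp7 (chr9:7691990-7692089, plus strand): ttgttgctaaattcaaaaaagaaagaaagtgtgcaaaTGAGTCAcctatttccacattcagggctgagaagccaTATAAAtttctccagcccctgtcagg

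The capitals in these lines begin 63 bases before the start in Mmp10 and Mmp7, 46 in Mmp3, 44 in Mmp12, 35 in Mmp13 and 95 in Mmp20 for the AP-1 letters. The TATA box letters were present in the printed stretch of each gene except Mmp12.

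Of these neighbors, both stromelysin genes had higher expression in humanized mice. Mmp10 (chr9:7502352-7510238) had 0.0922, 0.0889, 0.119, 0.0931 and 0.150 RPKM in germ-free mice, compared with 0.0979 to 1.27 RPKM (median 0.777) in the humanized group. Every humanized mouse except mouse 5 was above all germ-free mice. The fitted change was 7.10-fold (LFC = 2.83, SE = 0.52, FDR = 4.07e-06), and it rested on 8 to 104 reads per mouse. Mmp3 (chr9:7445822-7455972) had 0.0353, 0.0638, 0.114, 0.0534 and 0.0159 RPKM in germ-free mice. In humanized mice it ranged from no reads in mouse 5 to 0.682 RPKM, with a median of 0.313. Mmp3 had at most 45 reads in any mouse, and it met the read minimum through 5 humanized mice and 1 germ-free mouse, so its fitted change (5.70-fold, LFC = 2.51, SE = 0.74, FDR = 0.00734) is not independent of its selection. Without humanized mouse 5, neither gene overlapped between groups and the LFC values were 3.06 for Mmp10 and 2.78 for Mmp3. The Mmp3 call was lost on leaving out any mouse other than germ-free mouse 3 and humanized mouse 5, with an FDR of up to 0.0349, while the Mmp10 call held without each mouse in turn.

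Mmp7 and Mmp20, toward the other end of the cluster from Mmp13, had lower expression. Mmp7, which in mice also processes defensins, fell (LFC = −1.46, SE = 0.38, FDR = 0.00122), and germ-free mouse 1, at 31.2 RPKM, was set apart from the other germ-free mice at 9.39, 10.2, 9.31 and 5.45 RPKM. Humanized mice had 3.27 to 5.97 RPKM of Mmp7 with a median of 4.89, overlapping only germ-free mouse 5. Without germ-free mouse 1 the LFC was −0.85 at an FDR of 0.00465, still below the threshold. The quasi-likelihood test over all mice did not call Mmp7 (FDR = 0.0134). Of its exon bases, 11.5% are shared with a gene on the opposite strand. Mmp20, at 2 to 23 reads per mouse, met the read minimum in all 5 germ-free and 0 humanized mice, so its fall by 1.22 on the log2 scale (SE = 0.35, FDR = 0.00691) is likewise not independent of its selection. The Mmp20 call was lost on leaving out any of germ-free mice 1 to 4 or of humanized mice 2, 4, 5 and 6, with an FDR of up to 0.0319. Mmp13 and Mmp12, named here because they lie in the cluster and chosen after their values were seen, were not called. For Mmp13 the values were 0.329 ± 0.127 and 0.758 ± 0.428 RPKM (LFC = 1.20, SE = 0.53, FDR = 0.0866), with higher expression called without humanized mouse 5 (LFC = 1.44, FDR = 1.81e-04), and for Mmp12 the LFC was −0.12 (FDR = 0.873).

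**Figure D2:**
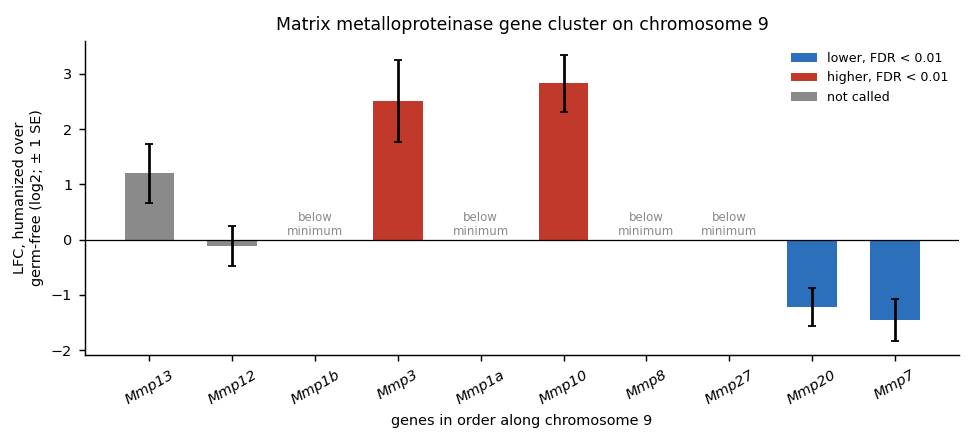
LFC of humanized over germ-free mice for the 10 Mmp genes of the chromosome 9 cluster in their order along the chromosome, as bars from 0 with error bars of 1 SE. Mmp3 and Mmp10 stand at 2.51 and 2.83, Mmp20 and Mmp7 at −1.22 and −1.46, and 4 genes are below the read minimum.

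Of the inhibitors, Timp2 and Timp3 fell, while Timp1 and Timp4 were not called. Timp2 (chr11:118301069-118355740), which inhibits MMPs and takes part in the activation of pro-MMP-2 by Mmp14, was the most abundant inhibitor at 35.0, 26.3, 34.2, 42.8 and 33.4 RPKM in germ-free mice. Humanized mice had 7.12 to 18.1 RPKM, with a median of 13.9. Every humanized mouse was below every germ-free mouse, a 2.49-fold difference (LFC = −1.31, SE = 0.19, FDR = 2.47e-09).

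Timp3 (chr10:86300372-86349506), which binds to the matrix and also inhibits ADAM17 and several ADAMTS enzymes, had 11.5, 9.54, 10.8, 12.6 and 9.77 RPKM in germ-free mice, compared with 4.16 to 8.04 RPKM (median 5.82) in the humanized group. Its groups did not overlap either (LFC = −0.87, SE = 0.14, FDR = 1.84e-07). Of its exon bases, 21.3% are shared with Syn3 on the opposite strand.

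Timp1, the inhibitor known as inducible in injury and inflammation, was low in both groups. It had 0.868 ± 0.126 and 0.828 ± 0.445 RPKM in the germ-free and humanized groups (LFC = −0.07, SE = 0.40, FDR = 0.936). Humanized mice ran from 0.142 RPKM in mouse 5 to 1.33 RPKM in mouse 3, and at this SE a change of moderate size was not detectable. Timp4 had 0.0135 to 0.758 RPKM in germ-free mice (LFC = −0.50, SE = 0.58, FDR = 0.598).

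**Figure D3:**
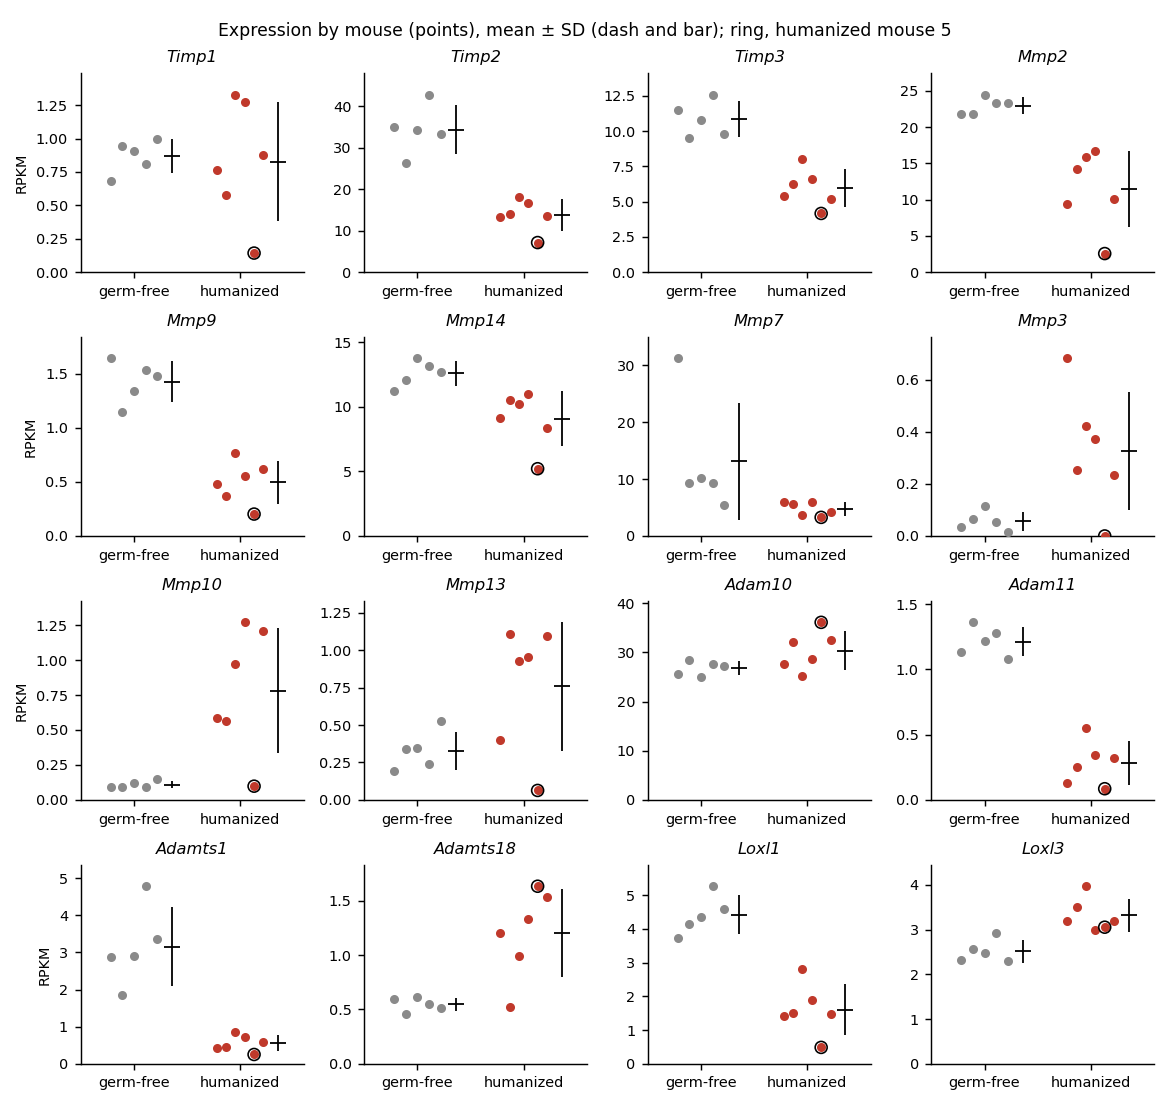
RPKM of 16 members, with each point 1 mouse (gray for germ-free, red for humanized), the dash and bar the mean ± SD of each group, and a ring around humanized mouse 5. Timp2, Timp3, Mmp2, Mmp9, Mmp14, Adam11, Adamts1, Loxl1 and Loxl3 show no overlap between groups, and mouse 5 is the lowest humanized mouse for 13 of the 16 genes.

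The balance of related genes was compared as the log2 ratio of their RPKM values in each mouse. Of 5 pairs tested by an exact two-sided permutation test, in which the 462 ways to split the mice allow no p below 0.00216, 3 differed between groups after Benjamini–Hochberg adjustment at 0.05. Timp1 over Mmp9 was −2.65 ± 0.373 in germ-free and −1.35 ± 0.470 in humanized mice, a difference of 1.30 (exact permutation p = 0.00433, adjusted p = 0.0216). Mmp15 over Mmp14 was 1.69 ± 0.153 and 2.43 ± 0.589, a difference of 0.74 (exact permutation p = 0.0108, adjusted p = 0.0271), and the adjusted p was 0.0595, 0.0714 and 0.0595 without germ-free mouse 3, 4 and 5.

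Timp2 over Mmp2, the inhibitor and the gelatinase it helps to activate, was 0.92 ± 0.227 in germ-free and 0.79 ± 0.552 in humanized mice, a difference of −0.13 that was within the spread between mice (exact permutation p = 0.669, adjusted p = 0.669). Summed over families, the inhibitors had 46.4 ± 7.22 and 20.8 ± 5.5 RPKM in the germ-free and humanized groups, and the MMP genes had 91.4 ± 8.40 and 68.7 ± 8.92 RPKM. The ratio of these sums was 0.510 ± 0.0917 and 0.299 ± 0.0560. Most of the inhibitor sum was Timp2.

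Neither Adam9, Adam10 nor Adam17, which are among the abundant ADAM genes, was called by the exact test after TMM normalization. Summed ADAM expression was 88.5 ± 2.71 and 88.7 ± 3.98 RPKM in the germ-free and humanized groups. Most of this sum was Adam9 and Adam10, whereas the LFC was below 0 for 13 of the 17 tested ADAM genes. Adam9, the most abundant by the mean over all mice though not in humanized mice, had 31.4 ± 1.44 and 30.2 ± 2.62 RPKM (LFC = −0.05, SE = 0.07, FDR = 0.665), and with total-count normalization it was called lower (LFC = −0.25, FDR = 0.00305). Adam10, the protease that starts Notch receptor cleavage, had 26.8 ± 1.4 and 30.4 ± 3.97 RPKM (LFC = 0.18, SE = 0.09, FDR = 0.159), and with total-count normalization its LFC was −0.01. Adam17 (chr12:21323509-21373632), which releases TNF and growth factors of the EGF family, had 5.47, 6.13, 6.35, 6.64 and 6.58 RPKM in germ-free mice, compared with 6.66 to 8.03 RPKM (median 7.09) in the humanized group. The Adam17 groups did not overlap but nearly met, and the difference of 1.17-fold did not pass the threshold (LFC = 0.22, SE = 0.07, FDR = 0.0244). The log2 ratio of Adam17 over Adam10 was −1.56 ± 0.109 and −1.51 ± 0.184, a difference of 0.05 (exact permutation p = 0.610, adjusted p = 0.669). No ADAM gene rose by edgeR's exact test, its quasi-likelihood test or DESeq2, with 2 at an unadjusted p below 0.05. Without humanized mouse 6, Adam15, named after its values were seen, was called higher by the exact test (LFC = 0.27, FDR = 0.00674), compared with an LFC of 0.23 and an FDR of 0.0499 over all mice. Of the exon bases of Adam15, 20.6% are shared with another gene on the opposite strand.

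The ADAM genes that fell were Adam11, Adam23 and Adam33. Adam11 and Adam23 lack an active protease site and are known from neurons, and Adam33 is known from mesenchymal cells. Adam11 (chr11:102761439-102780262) had 1.13, 1.36, 1.22, 1.28 and 1.08 RPKM in germ-free mice, compared with 0.0854 to 0.551 RPKM (median 0.288) in the humanized group. All germ-free values were at least 1.08 RPKM, and the 4.31-fold difference was the largest in the family (LFC = −2.11, SE = 0.36, FDR = 6.74e-07). Adam23 fell from 0.812 ± 0.222 to 0.284 ± 0.152 RPKM (LFC = −1.51, SE = 0.43, FDR = 0.00339), and the call was lost without germ-free mouse 3, 4 or 5 or humanized mouse 1, at an FDR of up to 0.0171. Adam33 fell from 0.687 ± 0.180 to 0.251 ± 0.168 RPKM (LFC = −1.44, SE = 0.36, FDR = 0.00115). The Adam33 groups overlapped, and its call was lost with the quasi-likelihood test (FDR = 0.0117). Enteric neuron and glia markers were also lower, with 8 of 10 called and a median LFC of −1.63, and their part in the Adam11 and Adam23 results was not tested.

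The ADAMTS family held the lowest LFC of the members, that of Adamts1. It belongs to the hyalectanases, which cut versican and related proteoglycans, and 4 of these 6 genes fell, with a median LFC of −1.53. Adamts1 (chr16:85793827-85803113) had 2.88, 1.87, 2.91, 4.78 and 3.36 RPKM in germ-free mice, compared with 0.25 to 0.867 RPKM (median 0.530) in the humanized group. The groups were far apart, with a 5.71-fold difference (LFC = −2.51, SE = 0.30, FDR = 1.66e-13). Adamts5, which lies close by at chr16:85858170-85901125, had 0.697 ± 0.173 and 0.187 ± 0.0957 RPKM (LFC = −1.89, SE = 0.33, FDR = 1.17e-06). A similar pair lies on chromosome 9, where Adamts15 (chr9:30899155-30922452) fell from 1.91 ± 0.587 to 0.851 ± 0.202 RPKM (LFC = −1.17, SE = 0.22, FDR = 1.60e-05) and Adamts8 (chr9:30942562-30963838) from 0.332 ± 0.0966 to 0.0916 ± 0.0463 RPKM (LFC = −1.84, SE = 0.35, FDR = 7.58e-06). None of these 4 genes overlapped between groups, and each was called without each mouse in turn. Of the exon bases of Adamts8, 10.6% are shared with another gene on the opposite strand.

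Other ADAMTS genes varied more. Of the 3 procollagen N-proteinases, which trim fibrillar procollagens, Adamts2 fell from 1.99 ± 0.188 to 0.738 ± 0.485 RPKM (LFC = −1.43, SE = 0.41, FDR = 0.00353), named after its value was seen. The Adamts2 call was lost with the quasi-likelihood test (FDR = 0.0204) and without germ-free mouse 4 or 5 or humanized mouse 1, 4 or 6, at an FDR of up to 0.0142. Adamts19 fell by 1.76 on the log2 scale (SE = 0.35, FDR = 2.55e-05) and Adamts16 fell by 0.94 (SE = 0.24, FDR = 0.00267), the latter no longer called without germ-free mouse 1, humanized mouse 1 or humanized mouse 6, at an FDR of up to 0.0181. Adamts10, which is associated with fibrillin microfibrils and was the most abundant ADAMTS gene by the mean over all mice, though below Adamts1 in germ-free mice, had 2.77 ± 0.186 and 1.71 ± 1.06 RPKM in the germ-free and humanized groups (LFC = −0.70, SE = 0.32, FDR = 0.0975). Humanized mouse 3 had 3.75 RPKM, above every germ-free mouse, and without it the LFC was −1.09 at an FDR of 8.68e-06.

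Adamts18 was the exception in its family. It had 0.593, 0.457, 0.615, 0.551 and 0.515 RPKM in germ-free mice, compared with 0.525 to 1.63 RPKM (median 1.27) in the humanized group. Every humanized mouse except mouse 2 was above all germ-free mice, and expression was 2.2-fold higher (LFC = 1.14, SE = 0.24, FDR = 2.12e-04). The call held without each mouse in turn.

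Of the ADAMTSL genes, 4 of 5 fell by edgeR's exact test and by DESeq2, and 2 of 5 by the quasi-likelihood test. None rose by any of these tests, with 0 higher at an unadjusted p below 0.05. Adamtsl4, which binds fibrillin-1, fell from 3.55 ± 0.570 to 2.01 ± 0.665 RPKM (LFC = −0.82, SE = 0.21, FDR = 0.00190), and the FDR was 0.0116 without germ-free mouse 4. Adamtsl1 and Adamtsl3 fell further, by 1.94 (SE = 0.40, FDR = 4.09e-05) and by 2.2 (SE = 0.52, FDR = 4.02e-04) on the log2 scale. Adamtsl2 fell by 1.27 (SE = 0.37, FDR = 0.00586), and this call was lost without germ-free mouse 1, 3 or 4 or humanized mouse 1, 4 or 6, at an FDR of up to 0.0270. The most abundant of the family, Adamtsl5, had 3.87 ± 0.414 and 3.28 ± 0.748 RPKM (LFC = −0.24, FDR = 0.318).

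The lysyl oxidase genes were split in direction. Loxl1 (chr9:58287723-58313212), required for elastic fiber upkeep, had 3.72, 4.14, 4.36, 5.27 and 4.61 RPKM in germ-free mice, compared with 0.486 to 2.82 RPKM (median 1.48) in the humanized group. The groups did not overlap and expression was 2.77-fold lower (LFC = −1.47, SE = 0.31, FDR = 5.77e-05). Lox fell from 1.43 ± 0.309 to 0.755 ± 0.301 RPKM (LFC = −0.93, SE = 0.27, FDR = 0.00643). Its groups overlapped, and the call was lost without germ-free mouse 1, 3, 4 or 5 or humanized mouse 1, 4 or 6, at an FDR of up to 0.0285.

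Loxl2, which cross-links collagen IV, had 5.63 ± 0.823 and 2.80 ± 1.32 RPKM (LFC = −1.01, SE = 0.35, FDR = 0.0186). Loxl4 had 1.16 ± 0.152 and 0.571 ± 0.249 RPKM (LFC = −1.02, SE = 0.32, FDR = 0.0113). For both, the groups did not overlap and the FDR was below 0.01 without humanized mouse 5 (5.07e-05 and 3.54e-04) or without mouse 3 (0.00427 and 0.00263).

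Loxl3 (chr6:83034173-83052562) was the lysyl oxidase gene that rose. It had 2.32, 2.56, 2.48, 2.92 and 2.30 RPKM in germ-free mice, compared with 2.99 to 3.97 RPKM (median 3.19) in the humanized group, without overlap. The increase was 1.32-fold (LFC = 0.40, SE = 0.10, FDR = 0.00803). This call was lost with the quasi-likelihood test (FDR = 0.0102), without the expression filter (FDR = 0.0182), with at least 10 reads required in every mouse (FDR = 0.0106), and under upper-quartile (FDR = 0.0229) and total-count normalization (LFC = 0.22, FDR = 0.237). It was also lost without any mouse other than germ-free mouse 4 and humanized mice 4 and 5, at an FDR of up to 0.0390. Of its exon bases, 11.6% are shared with Htra2 on the opposite strand.

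The collagen gene Col1a1 was lower relative to Lox in humanized mice. The log2 ratio of Lox over Col1a1, a substrate chain, was −4.80 ± 0.267 in germ-free and −3.98 ± 0.719 in humanized mice, a difference of 0.82 (exact permutation p = 0.0216, adjusted p = 0.0361). Leaving out any germ-free mouse gave differences from 0.711 to 0.874 with an adjusted p of at least 0.0714.

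Genes that act on or with the members were taken from lists. Of 12 lysyl oxidase substrates and scaffolds, 8 fell by the exact test and by DESeq2, and 5 by the quasi-likelihood test. None rose by any of these tests, with 0 higher at an unadjusted p below 0.05. The genes that fell included Col1a1, from 28.9 ± 2.29 to 9.79 ± 5.18 RPKM, and Ltbp4, from 33.6 ± 4.79 to 8.22 ± 4.32 RPKM. Of 12 ADAMTS substrates and microfibril partners, 7 fell, among them Vcan, the versican gene (LFC = −1.39, SE = 0.31, FDR = 1.81e-04). Of 14 tested genes of collagen and elastin processing, 7 fell and 1 rose, with Bmp1, the procollagen C-proteinase, at 7.40 ± 0.705 and 2.92 ± 0.999 RPKM (LFC = −1.34, SE = 0.20, FDR = 1.33e-08) and P4hb, which also folds many other secreted proteins, as the gene that rose (LFC = 0.36, SE = 0.08, FDR = 2.94e-04).

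Activators and regulators of the proteases were mixed, with 5 of 17 tested genes lower and 4 higher by the exact test and 2 lower and 3 higher by the quasi-likelihood test, by which Plau, Reck, Mep1a and Mep1b lost their calls at an FDR from 0.0102 (Reck) to 0.0239 (Plau). Plau, encoding urokinase, fell from 7.53 ± 1.08 to 2.98 ± 1.43 RPKM (LFC = −1.34, SE = 0.39, FDR = 0.00564), whereas Plaur, encoding its receptor, rose from 4.99 ± 0.702 to 7.96 ± 1.09 RPKM (LFC = 0.67, SE = 0.12, FDR = 1.00e-04). Reck, a membrane-anchored MMP inhibitor, fell from 2.21 ± 0.410 to 0.752 ± 0.412 RPKM (LFC = −1.55, SE = 0.38, FDR = 7.03e-04). The epithelial meprin genes moved apart, Mep1a falling from 202.6 ± 10.8 to 130.4 ± 35.2 RPKM (FDR = 0.00113) and Mep1b rising from 68.9 ± 4.67 to 102.5 ± 25.3 RPKM (FDR = 0.00145).

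Partners of ADAM10 and ADAM17, such as rhomboid-like and tetraspanin proteins that carry them to the cell surface, showed no call in 10 tested genes by the exact test, the quasi-likelihood test or DESeq2, with 2 lower and 1 higher at an unadjusted p below 0.05. Of 12 substrates of these sheddases, 4 fell and 2 rose by the exact test, and 4 fell and 1 rose by the quasi-likelihood test. Hbegf, an EGF receptor ligand, fell from 17.1 ± 2.40 to 5.67 ± 1.86 RPKM (LFC = −1.59, SE = 0.20, FDR = 2.88e-12), and Notch1, Notch2 and Ereg were also lower. Tnf rose from 0.25 ± 0.0399 to 0.584 ± 0.178 RPKM (LFC = 1.22, SE = 0.25, FDR = 1.81e-04), and Areg rose by 0.92 on the log2 scale (SE = 0.27, FDR = 0.00858). The Areg call was lost with the quasi-likelihood test (FDR = 0.0240), with total-count normalization (FDR = 0.0317), without the expression filter (FDR = 0.0127), and without germ-free mouse 1, 3, 4 or 5 or humanized mouse 1, 5 or 6, at an FDR of up to 0.0352.

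Markers of stromal cells were also lower. In the same test, all 12 smooth muscle markers fell, with a median LFC of −1.98, and 8 of 12 fibroblast markers fell, with a median of −1.18. By the quasi-likelihood test these counts were 8 and 4, and on leaving out each mouse in turn they were 9 to 12 and 6 to 11. The members' median LFC of −0.84 was above both. Of the 67 tested members, 20 had an LFC below the fibroblast median, and 4 (Adam11, Adamts1, Adamtsl3 and Mmp16) were below the smooth muscle median. The summed level of the fibroblast markers was 171.4 to 312.5 and 26.2 to 155.7 RPKM in the germ-free and humanized groups, and that of the smooth muscle markers 426.7 to 1196 and 63.6 to 423.5 RPKM. Endothelial markers had 32.7 to 38.2 and 4.34 to 31.0 RPKM, with 0 of 10 called by the exact test or the quasi-likelihood test, 2 lower by DESeq2 and 9 lower at an unadjusted p below 0.05. By the exact test 8 endothelial markers were called lower without humanized mouse 5, 7 without humanized mouse 3 and 1 without humanized mouse 4. In bulk tissue, fewer cells of a type and less RNA per cell cannot be told apart, and the part of the stromal markers in the results for the members was not tested.

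Epithelial markers, which define the colonic mucosa, summed to 4690.1 to 6345 and 5376 to 7433 RPKM in the germ-free and humanized groups, with 2 of 12 higher by the exact test, the quasi-likelihood test and DESeq2 alike and 6 of 12 higher at an unadjusted p below 0.05. None was lower by these tests or at that p. T and B cell markers summed to 4.90 to 7.47 and 8.88 to 28.6 RPKM, with 4 of 10 higher. Of the neutrophil markers, 3 of 10 could be tested, with 0 called by the exact test, the quasi-likelihood test or DESeq2 and 0 at an unadjusted p below 0.05. The list is named here because neutrophils are the cell type best known for Mmp8 and Mmp9. The summed level of its 3 tested genes only (Csf3r, Cxcr2 and Retnlg) was 1.15 to 1.85 and 0.677 to 2.83 RPKM in the germ-free and humanized groups. Elane had 0 reads in every mouse, and Ly6g, Ngp, S100a8, Mpo and Camp had at most 2, 4, 8, 10 and 11 reads, whereas Csf3r had 20 to 156, Cxcr2 11 to 36, Retnlg 6 to 53 and S100a9 0 to 34. Csf3r was called higher without humanized mouse 5 (LFC = 0.97, FDR = 0.00401), S100a9 without germ-free mouse 1 (FDR = 3.53e-04), and S100a8 and S100a9 without the expression filter (FDR = 0.00722 and 0.00982). The part of these genes in the Mmp9 result was not tested. Of 9 tested macrophage markers, 1 (Mrc1) fell and 1 (Cd14) rose, with sums of 93.6 to 113.8 and 86.5 to 130.1 RPKM. Cd14, with means of 39.6 and 64.3 RPKM, made up much of these sums. The LFC was below 0 for 7 of the 9 markers, with a median of −0.40. At an unadjusted p below 0.05 by the exact test, 3 were lower and 1 was higher. Of the Paneth cell markers, which accompany Mmp7 in small intestine, 3 of 8 could be tested, and Itln1 fell while Pla2g2a rose.

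**Figure D4:**
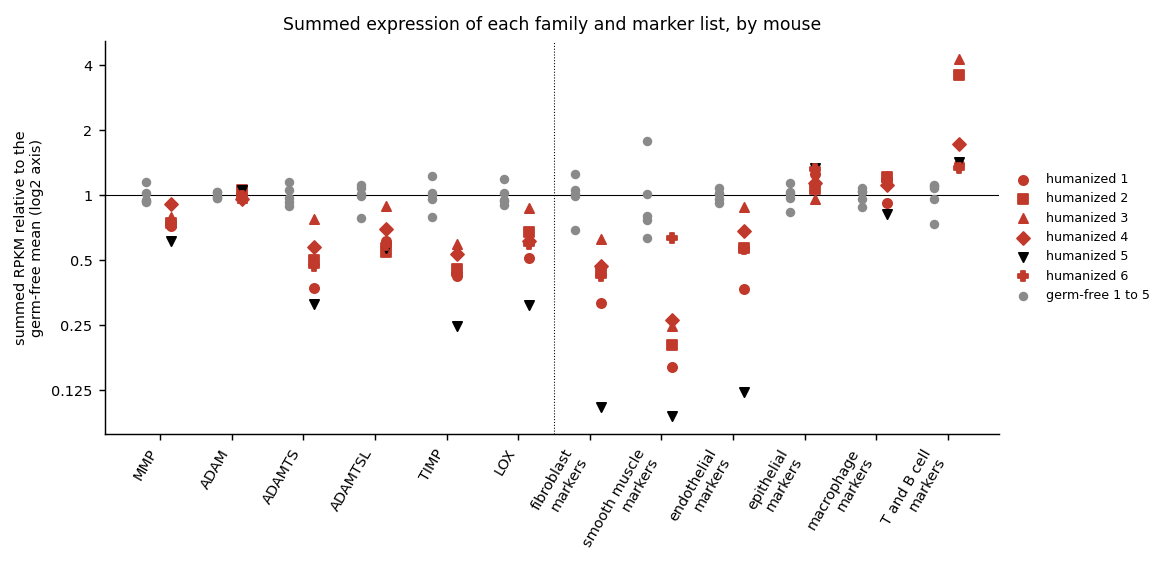
Summed RPKM of each family (left of the dotted line) and of 6 marker lists (right), divided by the germ-free mean and drawn on a log2 axis, with 1 symbol per humanized mouse, humanized mouse 5 in black and the germ-free mice in gray. The ADAM sums of humanized mice lie between 0.961 and 1.06, the TIMP sums between 0.249 and 0.597, and humanized mouse 5 has the lowest fibroblast sum, at 0.105.

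Humanized mice differed more among themselves than germ-free mice did. The median coefficient of variation of the members was 16.1% in germ-free and 45.0% in humanized mice, compared with 10.4% and 16.5% over all tested genes, and it was higher in humanized mice for 61 of 67 members, or 91.0%, compared with 80.2% of all tested genes. Humanized mouse 5 had the lowest humanized value for 45 members, or 67.2%, compared with 28.2% of all tested genes. Humanized mouse 3 had the highest for 37 members, or 55.2%, compared with 22.4%. Without humanized mouse 5, 30 of 66 tested members were lower, or 45.5%, compared with 11.5% of all 19698 genes tested without it. In that setting 5 members were higher, the median LFC was −0.71 for the members and 0.01 for all tested genes, and 24 of the lower members were called with and without it.

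The members that were hardest to measure lay at the read minimum. Adam5, just inside it with 5 mice at 10 or more reads, had 0 to 20 reads and was removed by the expression filter, so it was not tested. Adamts20, just outside with 4 such mice, had at most 30 reads. Of the 21 genes below the minimum, 11 had 0 reads in every mouse. Exons of 20 of the 68 members share bases with another annotated gene, and the shared part was above 10% for 11 of them, led by Adam1a at 63.7%.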

How the data were processed

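Colonic RNA libraries (TruSeq RNA v2, polyA, 101 bp paired-end) of 5 germ-free and 6 humanized mice were analysed from the gene count table. The authors aligned the reads to mm10 with TopHat (2.1.0), which calls Bowtie (2.2.3), counted them per gene with featureCounts (Subread 1.4.6-p5), and deposited the counts without normalization, beside a gene length whose origin is not given in the sources used here. That length equals the union of GENCODE M21 exons for 34 of the 68 members and differs from it for the other 34, so RPKM levels compared between genes depend on it. Columns were matched to mice by their labels. No pair of libraries of a group agreed within sampling noise (mean chi-square per gene 21.3 to 123).

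Following the methods of the study, counts were filtered with filterByExpr at its defaults, which kept 19863 genes, TMM-normalized, and compared with the exact test of edgeR 4.0.16 (R 4.3.3) at FDR below 0.01 over all tested genes. The exact test gives no SE, so SE values are those of a quasi-likelihood fit in edgeR to the same counts. RPKM used the TMM-normalized library sizes and the deposited lengths. Ratios of pairs were taken from log2 CPM with a prior count of 2. They were compared by exact permutation tests, two-sided, in which 5 mice against 6 allow p = 0.00216 at the smallest. Counts limit the precision of genes with few reads, and Mmp3, Mmp10 and Mmp20 had at most 104 reads in a mouse. The steps were tested on simulated counts.

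The members, gene lists and tests were chosen with earlier results of these data known. Named genes were all TIMP and LOX members, and in each other family the most abundant member by mean RPKM over all mice, the 6 lower members of lowest FDR and the higher members, plus Mmp2, Mmp7, Mmp9, the pairs and the genes at the read minimum. Alternatives were the quasi-likelihood test, DESeq2 1.42.0, other normalizations and filters, FDR below 0.05, an absolute LFC above 1, a replicate block and leaving out each mouse in turn. Promoter sequences are those of RefSeq on GRCm38.p6, in which 40 of the 68 members had an entry, and exon overlap was computed from GENCODE M21 too, which need not be the release used for counting. Reads and proteins were not analysed here.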

Additional observations from a re-analysis of the deposited data

Results flagged for a closer look

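The values of the 39 named members were searched for a mouse set apart from the rest of its group by Dixon's criterion at 95%, which flags about 1 in 20 groups by chance. Among 78 groups, 5 had such a value, where chance gives about 3.9. For Mmp7, germ-free mouse 1 had 31.2 RPKM and the next mouse 10.2 RPKM. For Adamts10, germ-free mouse 2 was lowest at 2.45 RPKM, with the next at 2.80 RPKM, and humanized mouse 3 was highest at 3.75 RPKM, with the next at 1.72 RPKM. For Adamts16, germ-free mouse 1 was highest at 0.564 RPKM, with the next at 0.425 RPKM, and humanized mouse 4 was highest at 0.391 RPKM, with the next at 0.237 RPKM.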

How the results depend on the processing

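The number of members with lower expression was 25 in the report, and it was 13 with edgeR's quasi-likelihood test, 10 with a replicate block, 28 with DESeq2 and 35 with total-count normalization. For the quasi-likelihood test, the replicate block and DESeq2, the share of all tested genes called lower is not given here. Whether the members exceeded it by those tests is therefore not shown. Leaving out each mouse in turn gave 17 (without germ-free mouse 4) to 34 (without humanized mouse 3) lower members, and 1486 to 2323 lower genes over the whole table. The 4 members with higher expression became 2 with the quasi-likelihood test, with total-count normalization and without the expression filter, 1 when at least 10 reads were required in every mouse, 0 with the replicate block, and 2 to 5 when each mouse was left out. The number of genes called in both directions over the whole table was 3826, 1678 with an absolute LFC above 1, 1012 with the replicate block, and 2880 to 4411 without each mouse. Total-count normalization shifted the median LFC of all genes by −0.18, with 3609 lower and 773 higher genes in place of 1999 and 1827, and with 35 lower and 2 higher members in place of 25 and 4. The replicate numbers name different animals, and mice with the same number did not deviate together (r from −0.133 to 0.0910 over genes). Of the germ-free mice, only mouse 3 correlated best with the humanized mouse of its own number. With the quasi-likelihood test, 14 of the 29 called members lost their call, at an FDR from 0.0102 (Loxl3) to 0.0237 (Mmp3), namely Adam23, Adam33, Adamts2, Adamts12, Adamts16, Adamtsl2, Adamtsl4, Lox, Loxl3, Mmp3, Mmp7, Mmp17, Mmp19 and Mmp20. Loxl4 was called with DESeq2 (FDR = 0.00527) and Mmp20 was not (FDR = 0.0355). Of the 23 lower members named by rule, 16 were called without each mouse in turn, and of the 4 higher members, Adamts18 and Mmp10 were. Among the named members and pairs, the signs that changed were of values that were not called. Adam10 had an LFC of −0.0109 with total-count normalization, under which Adam9 was called lower (FDR = 0.00305). Without each mouse, Timp1 had an LFC of −0.26 to 0.16 (above 0 without humanized mouse 2 or 5), Timp4 −0.81 to 0.13 (above 0 without germ-free mouse 4), and Adam17 over Adam10 a difference of −4.47e-05 (without humanized mouse 3) to 0.112. For Mmp15 over Mmp14 the differences ranged from 0.526 to 0.855 and for Lox over Col1a1 from 0.579 to 0.921 without each mouse, with an adjusted p above 0.05 without germ-free mouse 3, 4 or 5 for the former and without any germ-free mouse for the latter. As a ratio of RPKM values without a log, Lox over Col1a1 differed by 0.0462 (adjusted p = 0.0722, exact permutation test). The cause of these changes was not tested. Depth limits the members with few reads, such as Mmp3, Mmp10, Mmp20 and Timp1.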
